A study of Bos taurus with 18 samples.

Results

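The genes described here are 9 chemokines of the bovine endometrium: CXCL14, CXCL16, CXCL12, CXCL9, CXCL10, CXCL11, CCL2, CCL28 and CX3CL1. They were taken as the entries of the deposited count table that carry these symbols, and 9 of the table's 38001 genes matched, 1 for each name. The samples were endometrial cells brushed with a cytobrush from 6 Holstein cows (Bos taurus), and each cow gave 3 libraries. Treated day 7 libraries came from a second synchronized cycle with a depot injection on day 4, control day 7 and control day 4 libraries from an earlier cycle without exogenous progestogen, with days counted from estrus. Animals A, B and C formed the 17-OHPC/P4 arm, whose treatment was 100 mg of 17α-hydroxyprogesterone caproate (17-OHPC) plus 10 mg of progesterone (P4). The P4 arm, animals D, E and F, was given 100 mg of P4. All 6 cows were synchronized by Ovsynch in both cycles, and the treated cycle followed the control cycle in all 6, so treatment and the order of the cycles cannot be told apart. No source used here gives the ages of the cows.

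Chemokines are small secreted or membrane-anchored proteins that draw leukocytes along a gradient by binding G protein-coupled receptors on them. In the uterus, epithelium, stroma and resident leukocytes all make them, and they shape which immune cells are present when an embryo arrives. Roles named below are those described mainly in human and mouse.

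Total counts ranged from 29347255 to 40733544 per library over the 18 libraries. Levels are given as CPM, the count divided by the library's total and scaled to a common depth, in which 1 count was worth 0.0245 to 0.0341 CPM, and they are compared between samples of 1 gene, not between genes, because they are not scaled by gene length. Even numbers made up 78.3% of counts between 1 and 20, against 50.8% of counts above 1000, so the number of independent fragments may lie below the count. The summed CPM of 10 epithelial markers was 2272 to 6367 in all 18 libraries, as the tissue label requires. The 3 libraries of animal C stood apart: hemoglobin and other red cell markers summed to 378 CPM on treated day 7, 4309 CPM on control day 7 and 2524 CPM on control day 4, against at most 5.76 CPM in any library of the other cows. Animal F's control day 7 library also differed in its marker sums. Its stromal marker sum was 0.0894 of its control day 4 sum, against 0.543 to 2.39 in the other cows. For ciliated cell markers the ratio was 3.01, against 0.309 to 0.886 in the other cows. All 9 chemokines passed the filter on low counts and were tested among 19638 genes with edgeR's quasi-likelihood test, with Benjamini-Hochberg adjustment over all of them and a call at an adjusted p under 0.05. Whether groups of 3 libraries overlapped is given below as a description, since so few libraries can separate by chance. The share of all genes without overlap was not counted. In these bulk samples, fewer cells of a type and less RNA per cell cannot be told apart.

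On control day 7 compared with control day 4, CXCL14 rose and CXCL10 and CX3CL1 fell over the 6 cows. CXCL14 is a chemokine made by many epithelia that draws monocytes, dendritic cells and NK cells. CXCL10 is an interferon-induced ligand of the T and NK cell receptor CXCR3, and CX3CL1 (fractalkine) is a membrane-anchored ligand of CX3CR1. These were 3 of the 9 chemokines called, against a background of 10.6% of all genes tested called in either direction (6.27% higher and 4.28% lower). The 9 were chosen with earlier results of these data known, so this share is no independent test of the set. The median log2 fold change was 0.035 over the 9 chemokines and -0.049 over all genes tested. With the cow as a replicate block, which uses the pairing of samples within cows, the same 3 chemokines were called while the count over all genes was 3272 in place of 2073. Without the 3 libraries of animal C they were called too, with log2 fold changes of 4.17 for CXCL14 (adjusted p = 0.00347), -1.76 for CXCL10 (adjusted p = 0.0498) and -1.85 for CX3CL1 (adjusted p = 0.0475).

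CXCL14 had 55.3, 10.9 and 81.6 CPM on control day 7 in animals A, B and C, against 0.948, 4.63 and 51.4 CPM on control day 4. In animals D, E and F it had 16.6, 34.0 and 22.5 CPM on control day 7, against 1.70, 0.786 and 1.0 CPM on control day 4. Day 7 was higher in 6 of 6 cows, and the groups overlapped in the 17-OHPC/P4 arm through the high day 4 library of animal C, while they did not overlap in the P4 arm. The fitted log2 fold change was 3.04 ± 0.74 (SE; adjusted p = 0.0192). With day 4 of animal E left out the adjusted p was 0.0584, and with day 4 of animal F left out 0.0542, so either library decided the call. Without the day 4 library of animal C the log2 fold change was 4.44 (adjusted p = 0.00201).

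**Figure D1:**
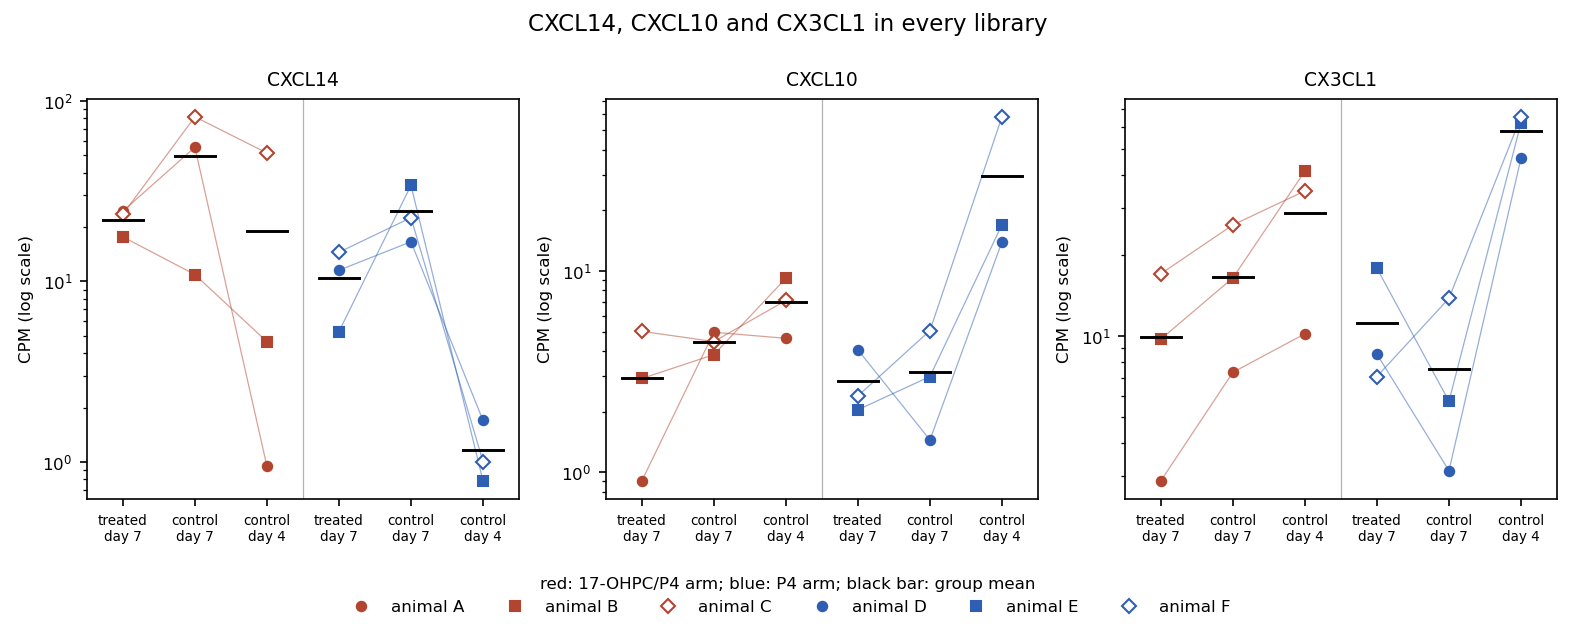
CPM on a log scale of CXCL14, CXCL10 and CX3CL1 in each library, with treated day 7, control day 7 and control day 4 from left to right within each arm, lines joining the samples of 1 cow and black bars at the group means. CXCL14 lay higher on control day 7 than on control day 4 in 6 of 6 cows, and CX3CL1 lower in 6 of 6.

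CXCL10 had 4.96, 3.84 and 4.46 CPM on control day 7 in animals A, B and C, against 4.63, 9.20 and 7.14 CPM on control day 4. In animals D, E and F it had 1.45, 2.99 and 5.06 CPM on control day 7, against 14.0, 17.0 and 58.4 CPM on control day 4. Day 7 was lower in 5 of 6 cows, animal A being the exception, and the groups did not overlap in the P4 arm. The fitted log2 fold change was -1.78 ± 0.43 (SE; adjusted p = 0.0187). With day 7 of animal D left out the adjusted p was 0.0553, and with day 4 of animal F left out 0.0588, neither of which is a call.

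CX3CL1 had 7.33, 16.5 and 26.0 CPM on control day 7 in animals A, B and C, against 10.2, 41.2 and 34.8 CPM on control day 4. In animals D, E and F it had 3.15, 5.72 and 13.8 CPM on control day 7, against 46.1, 62.3 and 65.7 CPM on control day 4. Day 7 was lower in 6 of 6 cows, and here too the groups did not overlap in the P4 arm. The fitted log2 fold change was -1.71 ± 0.47 (SE; adjusted p = 0.0321). This call was the least stable of the 3 chemokines called: it was lost without any 1 of 8 libraries, namely day 7 of A (adjusted p = 0.0872), B (0.0647), D (0.0865) or E (0.0769) and day 4 of B (0.0633), C (0.0647), E (0.0700) or F (0.0671).

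The other 2 ligands of CXCR3 did not pass the test. CXCL9, induced by interferon-gamma, ran from 0.557 through a median of 0.833 to 1.29 CPM on control day 7, against 0.948, 1.26 and 5.48 CPM on control day 4. It was lower on day 7 in 6 of 6 cows, and the log2 fold change was -0.98 ± 0.47 (SE; adjusted p = 0.203). CXCL11, with 0 to 71 counts a library, ran from 0 through 0.226 to 1.64 CPM on control day 7, against 0.362, 0.516 and 1.93 CPM on control day 4. Its log2 fold change was -0.89 ± 0.69 (SE; adjusted p = 0.447), lower in 5 of 6 cows. In RefSeq's cattle annotation (ARS-UCD2.0) the genes CXCL9, ART3, CXCL10 and CXCL11 follow each other on the chromosome.

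CXCL16, a membrane-anchored ligand of CXCR6, missed the threshold. It had 257, 167 and 134 CPM on control day 7 in animals A, B and C, against 39.4, 122 and 115 CPM on control day 4. In animals D, E and F it had 293, 238 and 100.4 CPM on control day 7, against 84.3, 97.1 and 125 CPM on control day 4. Day 7 was higher in 5 of 6 cows, and the groups did not overlap in the 17-OHPC/P4 arm. The log2 fold change was 1.21 ± 0.41 (SE; adjusted p = 0.0742), and it passed with DESeq2 (adjusted p = 0.0222) and without the treated library of E (0.0470), the control day 7 library of F (0.0351) or the treated library of F (0.0491).

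The remaining chemokines did not pass the test, and their groups overlapped in both arms. CXCL12, a stromal ligand of CXCR4 and ACKR3, ran from 2.62 through a median of 4.24 to 8.20 CPM on control day 7, against 0.502, 3.31 and 17.5 CPM on control day 4, and the log2 fold change was 0.045 ± 0.65 (SE; adjusted p = 0.976). CCL2, which draws monocytes through CCR2, ran from 5.06 through 29.9 to 116 CPM on control day 7, against 0.056, 16.5 and 89.7 CPM on control day 4. Its log2 fold change was 0.89 ± 1.17 (SE; adjusted p = 0.680), and it turned to -0.17 without the day 7 library of animal C and was 3.82 without that cow's day 4 library. CCL28, a mucosal epithelial chemokine for CCR10 and CCR3, ran from 7.07 through 49.0 to 138 CPM on control day 7, against 13.9, 49.6 and 225 CPM on control day 4, and the log2 fold change was 0.035 ± 0.76 (SE; adjusted p = 0.984). CCL28 was lower on day 7 in 5 of 6 cows, animal F being the exception, and its fitted value was -1.30 without that cow's day 7 library.

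**Figure D2:**
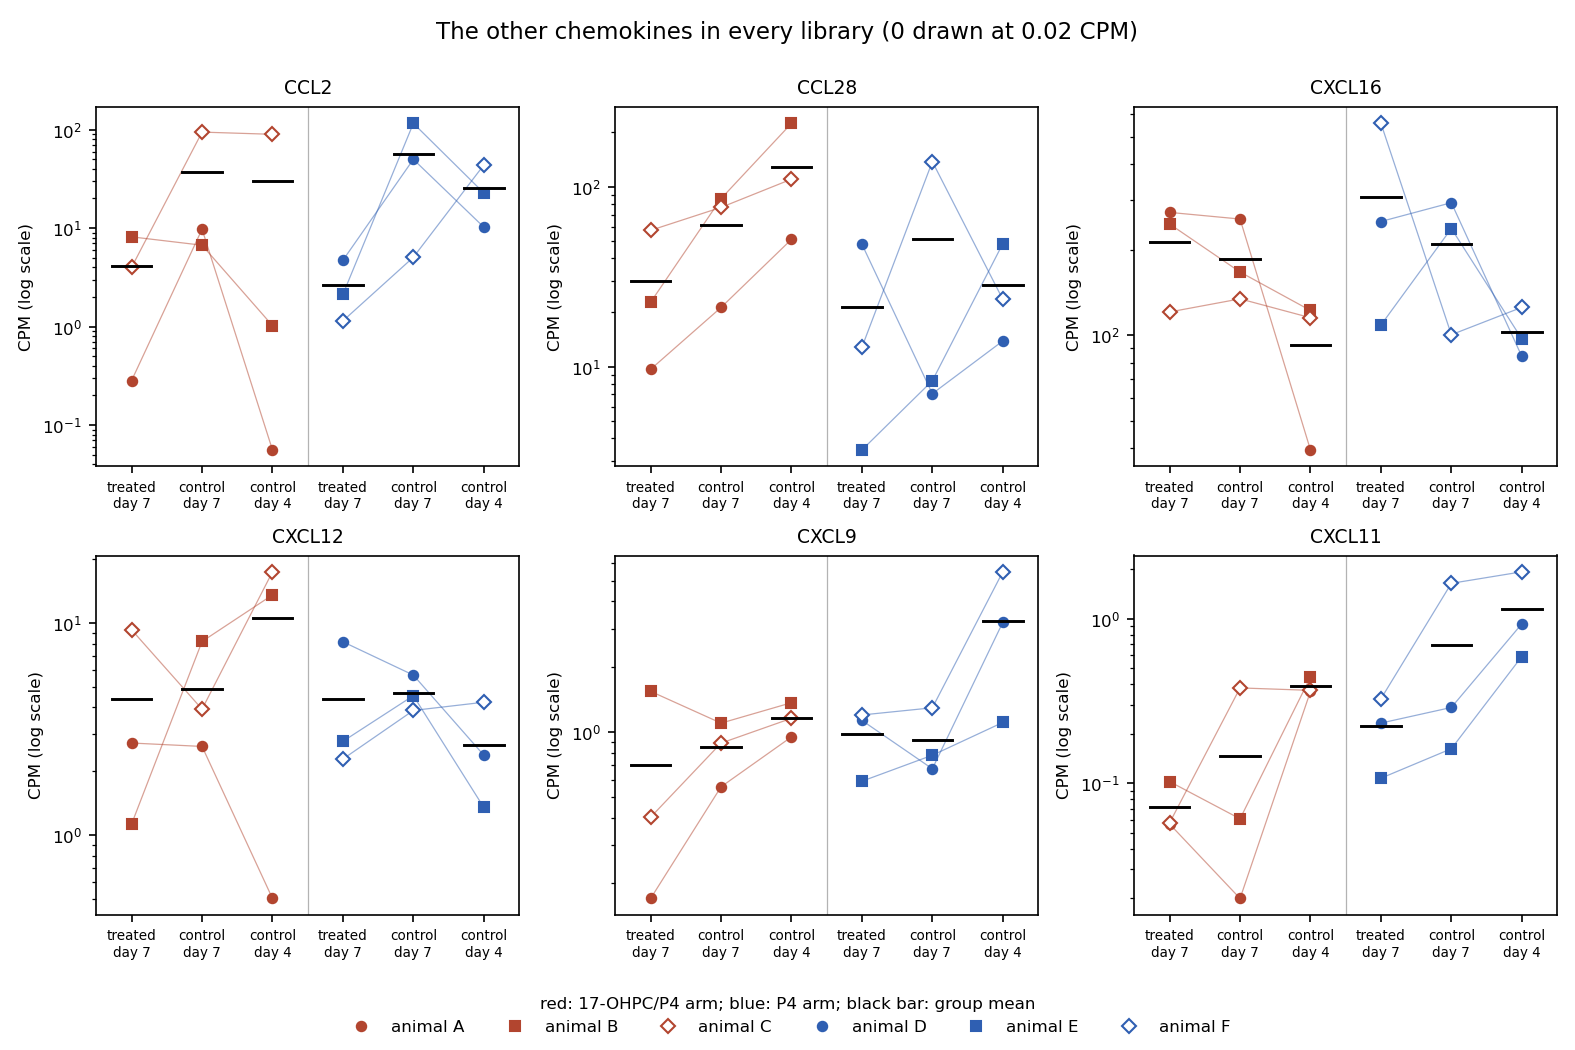
CPM on a log scale of CCL2, CCL28, CXCL16, CXCL12, CXCL9 and CXCL11 in each library, with treated day 7, control day 7 and control day 4 from left to right within each arm, lines joining the samples of 1 cow, black bars at the group means and a value of 0 drawn at 0.02 CPM. CCL2 reached 116 CPM on control day 7 and at most 8.15 CPM on treated day 7.

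Within the arms, the 3 calls stood in the P4 arm. There CXCL14 rose by 4.65 ± 1.13 on the log2 scale (SE; adjusted p = 0.0235), CXCL10 fell by 2.95 ± 0.63 (adjusted p = 0.0147) and CX3CL1 fell by 2.68 ± 0.69 (adjusted p = 0.0285). These are 3 of 9, against a background of 8.65% of genes called in the P4 arm (4.64% higher and 4.00% lower; 1698 genes, and 2975 with the cow as a replicate block). This share too is no independent test, since the 9 were chosen with earlier results known. Each of the 3 calls rested on 3 cows, and each was lost without single libraries of the arm. CXCL14 was lost without day 4 of D (adjusted p = 0.0571), E (0.105) or F (0.0966) or day 7 of D (0.0637) or E (0.0586). CXCL10 was lost without day 7 of D (0.0751) or E (0.0522) or day 4 of F (0.0762), and CX3CL1 without day 4 of D (0.0503), E (0.0888) or F (0.0819) or day 7 of D (0.129) or E (0.0954).

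In the 17-OHPC/P4 arm, 0 of the 9 chemokines were called by edgeR, against a background of 0.0407% (8 genes, 108 with the cow as a replicate block; 1890 genes at an unadjusted p under 0.05). None of the 9 had an unadjusted p under 0.05 there, and DESeq2 called 389 genes and 0 of the 9. The log2 fold changes were 1.44 ± 0.98 for CXCL14 (SE; adjusted p = 0.716), -0.60 ± 0.59 for CXCL10 (adjusted p = 0.806) and -0.73 ± 0.65 for CX3CL1 (adjusted p = 0.784). The CXCL14 value rested on 1 library: without day 4 of animal C it was 4.23 (adjusted p = 0.194), beside 4.65 in the P4 arm. The difference between the arms, tested directly, passed for 0 genes and 0 of the 9 with edgeR (background 0%; 1514 genes at an unadjusted p under 0.05, CXCL14 and CXCL10 among them), while DESeq2 called 90 genes and 0 of the 9. For CXCL14 the change in the 17-OHPC/P4 arm minus that in the P4 arm was -3.21 (95% interval -6.22 to -0.20; adjusted p = 0.617). Without the day 4 library of animal C that difference was -0.42 (-2.51 to 1.67; adjusted p = 0.905). For CXCL10 the difference between arms was 2.36 (0.55 to 4.16; adjusted p = 0.558), and 1.46 without day 4 of animal F, and for CX3CL1 1.95 (-0.01 to 3.92; adjusted p = 0.651). These libraries preceded any treatment.

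**Figure D3:**
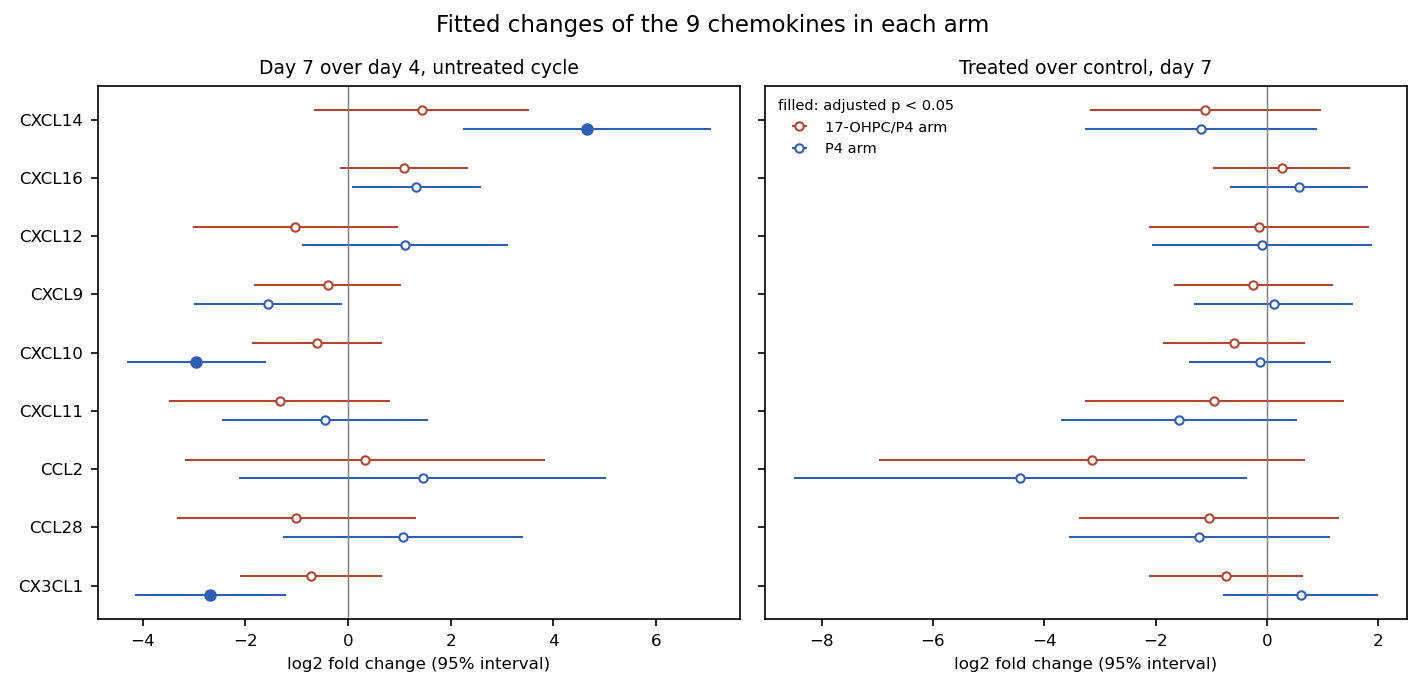
Fitted log2 fold changes with 95% intervals of the 9 chemokines in the 17-OHPC/P4 arm (red) and the P4 arm (blue), for day 7 over day 4 of the untreated cycle (left) and treated over control day 7 (right), with filled points at an adjusted p under 0.05. The filled points are CXCL14 at 4.65, CXCL10 at -2.95 and CX3CL1 at -2.68, all in the P4 arm for day 7 over day 4.

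Among 19 chemokine receptors tested for day 7 over day 4 in the 6 cows, 1 fell and 0 rose, a share near the 4.28% of all genes called lower. The one that fell was CX3CR1, the receptor of CX3CL1, with 18.0 ± 7.80 CPM on control day 7 and 49.2 ± 30.5 CPM on control day 4 (SD, n = 6), and the log2 fold change was -1.17 ± 0.27 (SE; adjusted p = 0.0160). Its call was lost without day 7 of A (adjusted p = 0.0502) or D (0.0591). CXCR3, the receptor of CXCL9, CXCL10 and CXCL11, had a log2 fold change of -0.78 (adjusted p = 0.136), and CXCR6, the receptor of CXCL16, -0.75 (adjusted p = 0.118). For CXCL12, ACKR3 had 1.07 (adjusted p = 0.110) and CXCR4 0.61 (adjusted p = 0.504). CCR2, CCR3 and CCR10 had values between -0.15 and 0.15.

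Of 7 genes that cut, trap or degrade chemokines, 1 rose and 0 fell, against 6.27% of all genes called higher. ADAM10, the membrane protease that sheds CX3CL1 and CXCL16, had 384 ± 179 CPM on control day 7 and 161 ± 56.7 CPM on control day 4 (SD, n = 6). Its log2 fold change was 1.39 ± 0.32 (SE; adjusted p = 0.0162), higher in 6 of 6 cows, and was lost without day 7 of A (adjusted p = 0.0514). Among 16 genes of interferon input, 1 rose and 0 fell, a share near the same background: IFNGR1, the ligand-binding chain of the interferon-gamma receptor, rose by 0.85 ± 0.18 on the log2 scale (SE; adjusted p = 0.0116), higher in 6 of 6 cows. IFNG itself had at most 14 counts and none in 3 libraries. Of 12 genes of NF-kappaB input, 0 were called by edgeR, against 10.6% of all genes called in either direction. Negative values were found for 10 of these 12 (median -0.27) and for 10 of the 16 interferon input genes (median -0.16). The median over all genes tested was -0.049. Of 19 other chemokines, 2 fell and 0 rose, against 4.28% of all genes called lower. CCL27, a CCR10 ligand, fell by 1.95 ± 0.49 (SE; adjusted p = 0.0216) and was lost without day 4 or day 7 of B (0.0584 and 0.0593) or day 7 of D (0.0741). CCL27 counts were low, at most 37 in any library. CCL20, the CCR6 ligand, fell by 2.39 ± 0.67 (SE; adjusted p = 0.0339) and was lost without any 1 of 6 libraries, with adjusted p up to 0.0963.

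Of 14 T and NK cell markers tested, 2 fell in the 6 cows, against 4.28% of all genes called lower, and 14 had negative values. GZMB had 2 entries in the deposited count table, so these 14 cover 13 gene symbols. Their median log2 fold change was -0.85, against -0.049 over all genes tested. IL2RB, an interleukin receptor chain, fell by 0.88 ± 0.21 (SE; adjusted p = 0.0174) and was lost without day 7 of A (0.0551) or B (0.0534) or day 4 of F (0.0524). CD3E, a chain of the T cell receptor complex, fell by 0.80 ± 0.21 (SE; adjusted p = 0.0292). The CD3E call was lost without any 1 of 7 libraries, without a filter on low counts (0.0538) and without animal C (0.103). In the P4 arm 4 of the 14 fell (IL2RB, CD3E, CD3D and GZMA), against 4.00% of all genes called lower there, and in the 17-OHPC/P4 arm 0 of the 14 were called, against 0.0407%. The summed CPM of the list was 93.9 to 145 on control day 7 and 94.7 to 188 on control day 4 in the 17-OHPC/P4 arm. In the P4 arm it was 59.3 to 78.9 on control day 7 and 161 to 342 on control day 4, without overlap. The part of T and NK cell content in the values of CXCL10, CX3CL1 and CX3CR1 was not tested.

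Other marker sums also differed between the days. Of the single markers, 0 of 7 neutrophil, 0 of 4 red cell and 0 of 10 epithelial ones were called. The share over all genes tested was 10.6% in either direction, so lists this short can hold 0 calls by chance. The 7 neutrophil markers tested had a median log2 fold change of 0.29, with 5 positive and 2 negative values. Abundant markers weigh most in a sum: S100A12 reached 9725 counts a library, and CXCR2 at most 254. The summed CPM of the neutrophil markers was 79.9, 139 and 186 on control day 7 in animals A, B and C, against 9.59, 14.5 and 175 on control day 4. The sums of animals D, E and F were 465, 219 and 61.9 on control day 7, against 52.2, 36.5 and 160 on control day 4. The neutrophil sum was higher on day 7 in 5 of 6 cows and lower in animal F. S100A12, a calcium-binding protein abundant in neutrophils, had a log2 fold change of 2.03 (adjusted p = 0.214), and MPO was at 0 in 8 of the 18 libraries. Red cell sums were higher on day 7 in 5 of 6 cows, by 1.56-fold to 2.97-fold, and in animal F the ratio was 0.584. Epithelial sums were lower on day 7 in 6 of 6 cows, with ratios of 0.481 to 0.920. The 10 epithelial markers had a median log2 fold change of -0.062, against -0.049 over all genes tested. The part of these cells in the values of CXCL14 and the other chemokines was not tested.

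**Figure D4:**
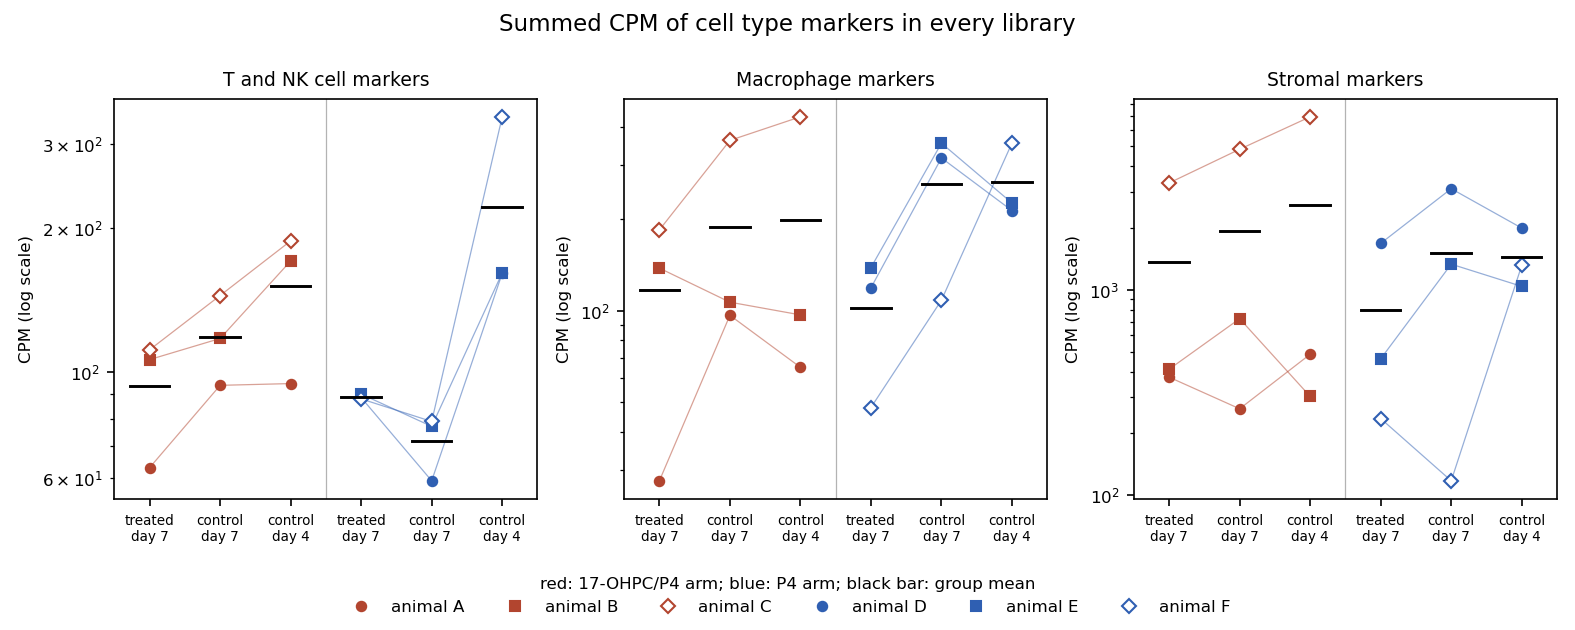
Summed CPM on a log scale of T and NK cell markers, macrophage markers and stromal markers in each library, with treated day 7, control day 7 and control day 4 from left to right within each arm, lines joining the samples of 1 cow and black bars at the group means. T and NK cell sums in the P4 arm were 59.3 to 78.9 CPM on control day 7 and 161 to 342 CPM on control day 4, and stromal sums of animal C were 3314 to 6957 CPM.

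The second question was how the chemokines differed between the treated and the control day 7. Over the 6 cows, 0 of 9 and 0 of all 19638 genes were called by edgeR (background 0%), 850 genes had an unadjusted p under 0.05, and DESeq2 called 2 genes and 0 of the 9. Among the 9, CCL2 was the 1 with an unadjusted p under 0.05. Fitted values were negative for 8 of the 9, with a median of -0.36 against -0.01 over all genes tested.

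CCL2 had 0.283, 8.15 and 4.00 CPM on treated day 7 in animals A, B and C, against 9.75, 6.70 and 94.5 CPM on control day 7. In animals D, E and F it had 4.72, 2.12 and 1.14 CPM on treated day 7, against 50.0, 116 and 5.06 CPM on control day 7. The treated sample was lower in 5 of 6 cows, animal B being the exception, and the groups did not overlap in the P4 arm. The log2 fold change was -3.79 ± 1.30 (SE; unadjusted p = 0.0111; adjusted p = 0.896), and -2.70 without animal C (adjusted p = 0.921). The adjusted p was 0.271 to 1 over the alternatives. By arm it was -3.14 ± 1.79 in the 17-OHPC/P4 arm (adjusted p = 0.990) and -4.43 ± 1.90 in the P4 arm (unadjusted p = 0.0347; adjusted p = 1). The value in the 17-OHPC/P4 arm was -1.01 without the control day 7 library of animal C.

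CXCL14 had 24.5, 17.6 and 23.5 CPM on treated day 7 in animals A, B and C, against 55.3, 10.9 and 81.6 CPM on control day 7. In animals D, E and F it had 11.5, 5.27 and 14.5 CPM on treated day 7, against 16.6, 34.0 and 22.5 CPM on control day 7. The treated sample was lower in 5 of 6 cows, animal B again being the exception, and the groups did not overlap in the P4 arm. The log2 fold change was -1.15 ± 0.69 (SE; adjusted p = 0.896). By arm it was -1.11 ± 0.97 in the 17-OHPC/P4 arm (adjusted p = 0.990) and -1.19 ± 0.98 in the P4 arm (adjusted p = 1). Within the arms, edgeR called 0 of 9 and 0 genes in all (background 0% in each), with 371 genes at an unadjusted p under 0.05 for the 17-OHPC/P4 treatment and 596 for the P4 treatment. DESeq2 called 1 gene for the 17-OHPC/P4 treatment and 2 for the P4 treatment, with 0 of the 9 for each.

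The other chemokines did not pass the test either. CCL28 ran from 3.44 through a median of 17.8 to 57.2 CPM on treated day 7, against 7.07, 49.0 and 138 CPM on control day 7, and the log2 fold change was -1.13 ± 0.77 (SE; adjusted p = 0.896), but 0.21 without the control day 7 library of animal F. CXCL11 had -1.27 ± 0.74 (SE; adjusted p = 0.896), with 0.057 to 0.326 CPM on treated day 7 against 0 to 1.64 CPM on control day 7, and was -0.18 without the control day 7 library of animal C and -0.49 without that of F. CXCL16 was the 1 positive value, at 0.42 ± 0.41 (SE; adjusted p = 0.905), and ran from 109 through 249 to 558 CPM on treated day 7 against 100.4, 202 and 293 CPM on control day 7. Its treated over control ratio was 5.56 in animal F, 1.06 in A and 1.48 in B. The ratios of animals C, D and E were 0.899, 0.858 and 0.457. Over the alternatives the fitted value of CXCL16 ran from 0.0058 to 0.63. CXCL10, CXCL12, CX3CL1 and CXCL9 had values of -0.36, -0.12, -0.070 and -0.062, all with adjusted p of 0.921 or more.

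**Figure D5:**
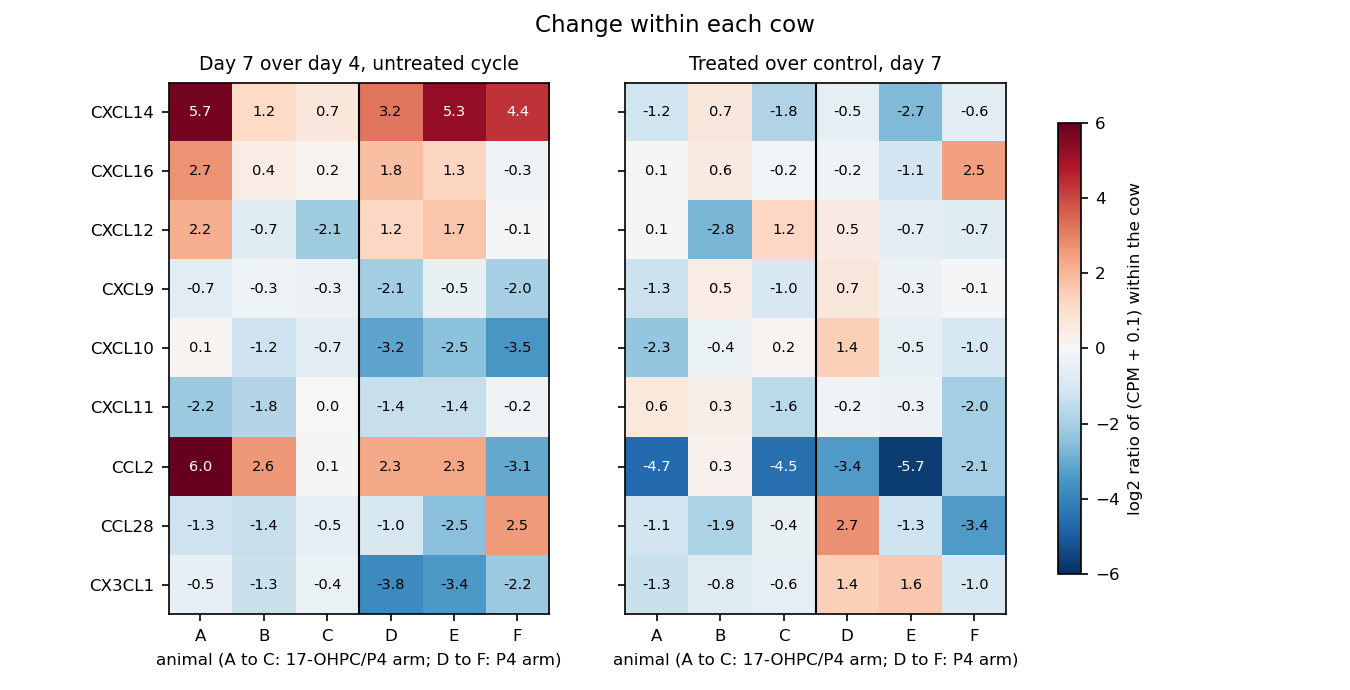
Log2 ratio of CPM plus 0.1 within each cow, colored from -6 (blue) to 6 (red), for day 7 over day 4 of the untreated cycle (left) and treated over control day 7 (right), with the 9 chemokines down the page and animals A to F across. CCL2 was lower on treated day 7 in 5 of 6 cows and CXCL14 higher on control day 7 than on control day 4 in 6 of 6.

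Macrophage markers were at lower values on treated day 7 in the same comparison: 8 of 8 tested were negative, with a median log2 fold change of -0.97 and 0 called. CD14, a monocyte and macrophage receptor, had -2.25 (adjusted p = 0.896) and CD163, a macrophage scavenger receptor, -2.07 (adjusted p = 0.896). Their summed CPM was 27.7 to 184 on treated day 7 and 96.5 to 361 on control day 7 in the 17-OHPC/P4 arm, and 48.1 to 138 on treated day 7 and 108 to 354 on control day 7 in the P4 arm. Of 10 stromal markers 9 were negative (median -0.60), and of 7 neutrophil markers 5 were negative (median -0.68). The stromal sum was higher on treated day 7 in animals A and F, with ratios to control day 7 of 1.425 and 2.01. In the other cows its ratio was 0.346 to 0.685. The summed CPM of the neutrophil markers was lower on treated day 7 in 6 of 6 cows. In animals A, B and C the treated sum was 0.0524, 0.928 and 0.184 of the control day 7 sum, where the CCL2 ratios were 0.0290, 1.22 and 0.0424. The neutrophil ratios of animals D, E and F were 0.200, 0.156 and 0.811, where the CCL2 ratios were 0.0944, 0.0183 and 0.226. The macrophage sum ratios were 0.287, 1.29 and 0.509 in animals A, B and C. In animals D, E and F they were 0.375, 0.391 and 0.445, so that sum was higher on treated day 7 in animal B alone. Each arm holds 3 cows, and whether these ratios move together was not tested. Of 19 other chemokines, 14 were negative with a median of -0.96, including CXCL2 at -2.12 and CXCL5 at -2.21, both neutrophil attractants, each with adjusted p = 0.896. The part of these cells in the CCL2 values was not tested.

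The third question was whether the 2 treatments differed. 17-OHPC is progesterone with an added hydroxyl group that carries a caproate ester, and its arm also received 10 mg of P4, so the doses differ as well as the compound. The 9 chemokines were compared between arms, with p-values adjusted over all genes tested. For the response to treatment in the 17-OHPC/P4 arm minus that in the P4 arm, edgeR called 0 of 9 and 0 genes in all (background 0%), with 247 genes and 0 of the 9 at an unadjusted p under 0.05, and DESeq2 called 0. The largest difference in size was that of CX3CL1, at -1.34 (95% interval -3.30 to 0.62), followed by CCL2 at 1.28 (-3.75 to 6.32), which ran from 0.27 to 3.46 over the alternatives, and CXCL11 at 0.64 (-2.66 to 3.94). CXCL14 differed by 0.075 (-2.83 to 2.98), CXCL10 by -0.46 (-2.26 to 1.33), CXCL9 by -0.37 (-2.39 to 1.65) and CXCL16 by -0.31 (-2.05 to 1.43). CCL28 differed by 0.18 (-3.09 to 3.45) and CXCL12 by -0.056 (-2.85 to 2.74). With intervals this wide, a p that misses the threshold does not show that the treatments act alike.

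Set side by side on treated day 7, the 17-OHPC/P4 arm over the P4 arm gave 0 of 9 chemokines called by edgeR, against a background of 0.0102% (2 genes; 1792 at an unadjusted p under 0.05, 0 of the 9; DESeq2 213, 0 of the 9). CXCL14 averaged 21.9 ± 3.71 CPM with 17-OHPC/P4 and 10.4 ± 4.71 CPM with P4 (SD, n = 3 each), a log2 difference of 0.97 (95% interval -1.10 to 3.05; adjusted p = 0.845). The control day 7 libraries of the same arms, taken before treatment, gave 0 of 9 by edgeR against a background of 0.00509% (1 gene; 2088 at an unadjusted p under 0.05, among them CXCL11; DESeq2 365, 0 of the 9). There CXCL14 already averaged 49.3 ± 35.7 CPM in the 17-OHPC/P4 arm and 24.4 ± 8.88 CPM in the P4 arm (SD, n = 3 each), a log2 difference of 0.90. CXCL11 had -2.32 (95% interval -4.49 to -0.14; adjusted p = 0.449) on control day 7 and -1.68 (-3.99 to 0.64; adjusted p = 0.697) on treated day 7. The control day 7 value was -4.50 without animal C's library and -0.75 without animal F's.

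Ordered by group mean over the 6 groups, CXCL14 was highest on control day 7 of the 17-OHPC/P4 arm (49.3 CPM) and lowest on control day 4 of the P4 arm (1.16 CPM). Of the 5 pairs of neighbours in that order 4 overlapped, and only treated day 7 and control day 4 of the P4 arm did not. CXCL10 and CX3CL1 were both highest on control day 4 of the P4 arm, at 29.8 and 58.0 CPM, and that group did not overlap with the next one, control day 4 of the 17-OHPC/P4 arm. All 5 neighbouring pairs overlapped for CXCL12, CXCL9 and CCL28.

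Across the 18 libraries, on log2 of CPM plus 0.1, CXCL10 followed CX3CL1 with a Pearson r of 0.863 (0.630 after removing group means). It followed CXCL9 with 0.785 (0.580 after removing group means) and CXCL11 with 0.659 (0.433). CXCL14 and CCL2 had an r of 0.301, and 0.709 after removing group means. The genes whose pattern was most like CXCL14 were VNN2 (0.853), MAP2K1 (0.849), WIPI1 (0.838), TCF23 (0.825) and ETS2 (0.806). For CXCL10 they were DFFB (0.924), ORC5 (0.913), NSUN6 (0.910), ABCD4 (0.910) and PLPPR3 (0.909). These correlations are descriptions over libraries that share 6 cows, and the highest values were picked among all genes tested.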

How the data were processed

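Poly(A) RNA of cytobrush samples was sequenced as paired reads, per the labels' protocols. The authors' deposited table holds raw counts per gene, not normalized. Tools listed in the submitters' processing notes are STAR, featureCounts, cutadapt, FastQC and DESeq2, without versions; build, annotation, strand setting and pair counting were not given in the sources used here. Gene names were taken from the deposited table: the RefSeq table (ARS-UCD2.0) matched 0 of its 38001 identifiers and served, by symbol, for gene order alone. Promoter and protein sequences were not analysed here.

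The members, gene lists and tests were chosen with earlier results of these data known. The counts were analysed with edgeR 4.0.16 in R 4.3.3 (filterByExpr, TMM factors 0.881 to 1.16, robust quasi-likelihood test, 1 mean for each of 6 groups over 18 libraries), after the same code was tested on simulated data. The biological coefficient of variation was 51.4%. Per-cow ratios and correlations used a pseudocount of 0.1 CPM. Replicates are separate cows. The letter marks the same cow across conditions, so samples pair by design; same-cow deviations from group means had r from -0.0939 to 0.729, over 0.1 in 12 of 18 pairs. No 2 libraries were identical (0 of 153 pairs), and the 18 pairs inside groups had a chi-square per gene of 58.2 to 389, above sampling noise. Named were the 9 members, 8 receptors, up to 4 called genes of each list (otherwise up to 2 as values) and the 5 genes most like CXCL14 and CXCL10. Alternatives were the cow as a block, RLE scaling, no filter, DESeq2 1.42.0, each library left out in turn and, chosen after seeing the data, animal C left out.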

Additional observations from a re-analysis of the deposited data

Results flagged for a closer look

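In 4 of 18 sets of 6 control libraries (9 chemokines on control day 7 and on control day 4), 1 library stood far above the rest on the CPM scale. Chance flags about 1 in 20 such groups only where values are normally distributed, and on log2 of CPM plus 0.1, a scale chosen after seeing the data, 0 of these 4 stood apart while the lowest day 4 library (animal A) did for CXCL16 and CX3CL1. CXCL14 on control day 4 had 51.4 CPM in animal C, and the next highest library had 4.63 CPM. CXCL10 on control day 4 had 58.4 CPM in animal F, and the next had 17.0 CPM. CXCL11 had its highest value in animal F on both days: 1.64 CPM on control day 7, where the next had 0.380 CPM, and 1.93 CPM on control day 4, where the next had 0.931 CPM.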

How the results depend on the processing

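Across the alternatives, the log2 values of the chemokines and of the called list genes kept direction and side of the threshold in 2050 values, lost the call in 49, gained it in 4 and turned sign in 110, and the cause was not tested. RLE scaling and no filter changed no chemokine call. The cow as a replicate block, which pairs the samples of each cow, changed no chemokine call; with it the genes called moved to 3272 for day 7 over day 4 in the 6 cows, 108 for day 7 over day 4 in the 17-OHPC/P4 arm and 2975 for day 7 over day 4 in the P4 arm, and it could not be fitted between cows. With DESeq2 the genes called moved to 3525 for day 7 over day 4 in the 6 cows, 389 for day 7 over day 4 in the 17-OHPC/P4 arm, 3401 for day 7 over day 4 in the P4 arm, 2 for treated over control day 7 in the 6 cows, 1 for treated over control day 7 in the 17-OHPC/P4 arm, 2 for treated over control day 7 in the P4 arm, 90 for the difference of day changes between arms, 213 for treated day 7 between arms and 365 for control day 7 between arms, and among the chemokines CXCL16 was called in addition for day 7 over day 4 in the 6 cows. Without animal C no chemokine call changed, and the genes called moved to 0 for day 7 over day 4 in the 17-OHPC/P4 arm, 1 for treated day 7 between arms and 0 for control day 7 between arms. Values whose sign turned were not called: with the replicate block, CCL28 at -0.50 for day 7 over day 4 in the 6 cows, CXCL10 at 0.069 for treated over control day 7 in the P4 arm, CXCL12 at 0.043 and CCL28 at -0.42 for the difference of treatment responses between arms, CCL2 at 1.43 for the difference of day changes between arms, and without animal C, CCL28 at -0.10 for day 7 over day 4 in the 6 cows, CXCL9 at 0.095 for treated over control day 7 in the 6 cows, CXCL9 at 0.070 and CXCL11 at 1.403 for treated over control day 7 in the 17-OHPC/P4 arm, CCL28 at -0.44 for the difference of treatment responses between arms, CXCL16 at 0.15 and CCL2 at 2.61 for the difference of day changes between arms, CCL28 at -0.46 for treated day 7 between arms, CXCL12 at 0.073 and CCL28 at -0.018 for control day 7 between arms. Leaving out 1 library at a time, the number of chemokines called ran 0 to 4 for day 7 over day 4 in the 6 cows and 0 to 3 for day 7 over day 4 in the P4 arm. The number of all genes called ran 945 to 3192 for day 7 over day 4 in the 6 cows, 1 to 136 for day 7 over day 4 in the 17-OHPC/P4 arm, 271 to 2301 for day 7 over day 4 in the P4 arm, 0 to 2 for the difference of day changes between arms, 0 to 6 for treated day 7 between arms and 0 to 264 for control day 7 between arms.

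Chemokine values that turned sign without some 1 library ranged as follows. For day 7 over day 4 in the 6 cows the ranges were CXCL12 (-0.23 to 0.35), CCL2 (-0.17 to 3.82) and CCL28 (-1.30 to 0.35). For day 7 over day 4 in the 17-OHPC/P4 arm the ranges were CCL2 (-1.80 to 6.19). For day 7 over day 4 in the P4 arm the ranges were CXCL11 (-2.01 to 0.10) and CCL28 (-1.59 to 1.69). For treated over control day 7 in the 6 cows the ranges were CXCL12 (-0.65 to 0.18), CXCL9 (-0.70 to 0.16), CCL28 (-1.79 to 0.21) and CX3CL1 (-0.37 to 0.30). For treated over control day 7 in the 17-OHPC/P4 arm the ranges were CXCL16 (-0.044 to 0.59), CXCL12 (-1.21 to 0.47), CXCL9 (-1.51 to 0.19) and CXCL11 (-1.51 to 1.23). For treated over control day 7 in the P4 arm the ranges were CXCL16 (-0.25 to 0.97), CXCL12 (-0.86 to 0.20), CXCL9 (-0.095 to 0.42), CXCL10 (-0.45 to 0.35) and CCL28 (-2.55 to 1.45). For the difference of treatment responses between arms the ranges were CXCL14 (-0.36 to 0.62), CXCL16 (-0.67 to 0.51), CXCL12 (-1.11 to 0.71), CXCL9 (-1.64 to 0.071), CXCL11 (-0.93 to 2.82) and CCL28 (-2.49 to 1.51). For the difference of day changes between arms the ranges were CXCL16 (-0.59 to 0.090), CXCL11 (-3.07 to 0.68), CCL2 (-3.25 to 4.74) and CCL28 (-2.70 to 0.59). For treated day 7 between arms the ranges were CXCL16 (-1.02 to 0.21), CXCL12 (-1.18 to 0.64), CXCL10 (-0.65 to 0.32), CCL2 (-0.46 to 1.18), CCL28 (-0.46 to 1.68) and CX3CL1 (-0.91 to 0.21). For control day 7 between arms the ranges were CXCL16 (-0.65 to 0.0038), CXCL12 (-0.67 to 0.22), CXCL9 (-0.46 to 0.072), CCL2 (-2.90 to 0.24) and CCL28 (-0.34 to 2.84). With 3 cows an arm, 1 library decided the sign of these values. Single libraries also moved values that kept their sign, and only some of these are given beside the statements they carry. Counting error was not separated from the spread between cows, so what depth limits for rare transcripts such as CXCL11 and CXCL9 was not tested.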
